A study of Homo sapiens with 6 samples.

Results

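Cancer-testis antigen genes were examined in WM164 cells, a line derived from human melanoma with the BRAF V600E change. RNA-seq libraries of cells with an empty expression vector (EV, 3 libraries) were compared with libraries of cells with an HDAC8 expression vector (HDAC8, 3 libraries). HDAC8 is a histone deacetylase. According to the methods of the study the plasmids were introduced by lipid transfection and both lines were then kept in hygromycin. Whether either line is a clone or a pool is not stated, so a difference between the lines and a difference between the vectors cannot be told apart. The genes were chosen by name, as protein-coding rows whose symbol starts with MAGEA, MAGEB, MAGEC, GAGE, PAGE, XAGE, CT45A, CTAG or SSX and a digit, together with PRAME. This gave 72 of the 60504 genes in the table. Of these, 71 belong to 10 families (13 GAGE, 12 MAGEA, 11 MAGEB, 9 CT45A, 8 SSX, 6 PAGE, 5 XAGE, 3 MAGEC and 3 CTAG genes, and PRAME). The remaining gene, SSX2IP on chromosome 1, is named after a protein that binds SSX2 and is no SSX gene. It is kept apart below. On the positions of GENCODE release 44 (GRCh38; the build behind the counts is not given in the sources used here), 70 of the 72 genes lie on chromosome X, and PRAME lies on chromosome 22.

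Cancer-testis genes are normally transcribed in male germ cells and silent in most other adult tissues, where DNA methylation of their promoters is a main part of the silencing. Many tumours, melanoma among them, express some of them, and peptides from their proteins can be recognised by T cells. MAGE proteins bind RING ubiquitin ligases and change what these ligases act on, CTAG1 genes encode the antigen NY-ESO-1 and CTAG2 its relative LAGE-1, PRAME encodes a leucine-rich repeat protein that serves a cullin ubiquitin ligase, and SSX genes are the fusion partners of synovial sarcoma. The families arose by repeated duplication, so that several members are near-identical in sequence.

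Total counts per library ran from 34741083 to 42041462. EV 2 stood apart at low counts, with 4850 genes above 0 and under 10 counts against 1588 to 2714 in the other libraries, so calls that rest on it are given with and without it. The HDAC8 transcript ranged from 383.8 to 478.8 normalized counts over EV and from 445.5 to 484.8 over HDAC8 (log2 fold change 0.15, SE 0.28, DESeq2 adjusted p = 0.856). Since it overlapped between the groups it is no check on the vector labels, and HDAC8 below means the libraries so labelled. The study probed HDAC8 protein by immunoblot in cells with either vector, which these RNA counts do not measure. The melanocyte lineage markers SOX10, MITF, PMEL, TYR, MLANA and S100B were all present, with summed normalized counts of 227481 to 309270 in EV and 127524 to 174923 in HDAC8. PMEL, TYR, MLANA and S100B were called lower. Among 6 germ cell markers, DDX4, DAZL and TEX101 were at 0 in every library, and the sum of all 6 overlapped between EV (181.2 to 306.2) and HDAC8 (153.1 to 282.0). SYCP3 (means 206.8 in EV and 138.0 in HDAC8) and POU5F1 (26.9 and 64.1) went in opposite directions. Both overlapped between the groups and were not called, and NANOG stayed at or below 0.99. Markers of immune cells summed to 0 to 14.7 in EV and 50.1 to 111.6 in HDAC8. CD3E was at 0 in EV and at 50.1 to 91.1 in HDAC8, CD14 ran from 0 to 14.7 and from 0 to 20.5, and PTPRC stayed at or below 2.57. The part of these marker differences in the results below was not tested.

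To determine which members had reads assigned to them at all, counts were read per member. For near-identical copies a 0 also depends on how shared reads were divided. No reads were found for 38 of the 72 genes in any library. Another 10 had reads but a total count under 10, with a highest count of 7 in any library. Of these 10, 8 had reads in EV 2 and 7 had reads in a single library. The remaining 24 members were tested, and 23 of them received an adjusted p. A call required a DESeq2 adjusted p under 0.05 together with a log2 fold change of 0.58 or more in either direction. Called higher in HDAC8 were 7 members, namely CTAG2, MAGEA8, MAGEA10, MAGEA1, CT45A1, CT45A3 and CT45A8. Called lower was 1 member, XAGE1B. Among all 21021 genes with an adjusted p, 5.57% were called higher and 5.44% lower. The members lie on chromosome X, where the background was not the same. Of 477 other protein-coding X-linked genes with an adjusted p, 10.9% were called higher and 3.56% lower, their median log2 fold change was 0.17, and 65.4% of them were above 0, against a median of 0.0027 for 13724 autosomal genes. The median over the 23 members was 0.16. The 7 calls do not count 7 separate observations, because 3 of them are CT45A copies that share reads. CTAG2, MAGEA8 and CT45A3 also passed the filter on total counts only through the HDAC8 libraries, having 5, 8 and 9 counts over the EV group, and XAGE1B passed it only through the EV libraries. Every HDAC8 library was above every EV library for 10 of the 24 tested members and below for 3, where 11.3% and 12.7% of all 26162 tested genes behaved so. Those above include the copies CT45A1, CT45A3, CT45A5, CT45A8 and CT45A9, and those below the copies XAGE1A and XAGE1B. Such copies share reads and are not separate observations. The shares among other X-linked genes were not computed. Without EV 2, the count of members called higher was 9 and that of members called lower was 2. In bulk RNA, a change in the number of cells that express a gene and a change in the RNA per cell cannot be told apart.

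**Figure D1:**
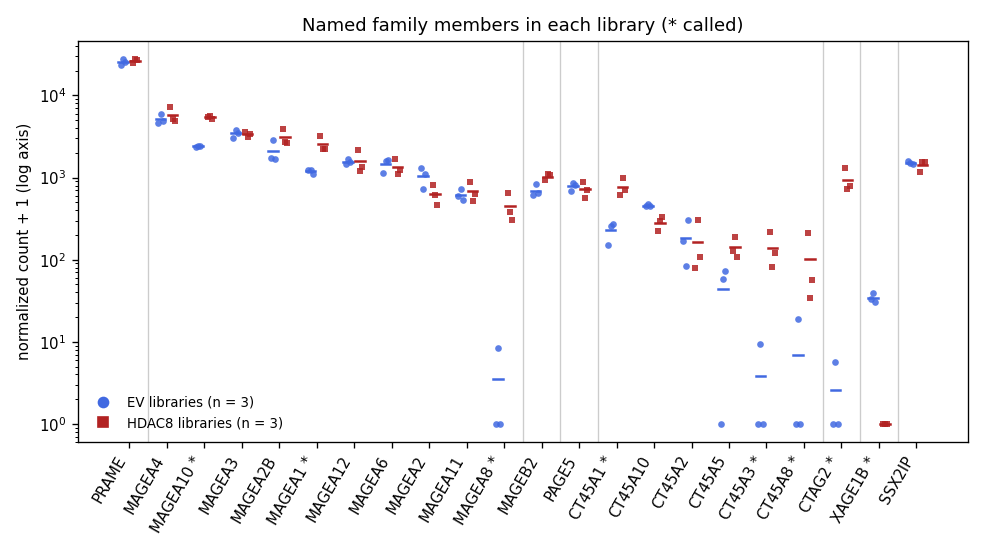
Normalized count plus 1 of each named member in each library, on a log axis, with 3 EV libraries (circles), 3 HDAC8 libraries (squares) and the group means (bars), ordered by family. CTAG2, MAGEA8, CT45A3 and CT45A8 sit at 0 in EV 1 and EV 3 and between 32.8 and 1291 in the HDAC8 libraries, while PRAME and MAGEA3 overlap between the groups.

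CTAG2 (ENSG00000126890, chrX:154651972-154653579, minus strand) moved from near absence to a high level. It had no reads in EV 1 and EV 3 and a normalized count of 4.67 in EV 2, against 1291, 729.2 and 780.8 in HDAC8. The groups were apart by more than 2 orders of magnitude, and HDAC8 1 was the highest. Over the groups there were 5 counts in EV and 2939 in HDAC8, a 583-fold difference with a 95% counting interval of 249.6 to 1797 (exact binomial, counting error only). This interval pools the libraries of a group. The DESeq2 95% interval of the fold change, which takes in the spread between libraries, ran from 209.3 to 1563. The DESeq2 adjusted p was 1.60e-32, and it was 3.14e-14 without EV 2, when EV had no reads and CTAG2 was at least 306.1-fold higher in HDAC8 against a floor of 3 counts per library. Measured per kb of exon, the mean level of CTAG2 went from 1.57 to 940.3 normalized counts, which placed it next to PAGE5 (954.0 in HDAC8). The NY-ESO-1 genes CTAG1A and CTAG1B were at 0 in all 6 libraries. They lie 32.69 kb or more from CTAG2. Of the 150-base windows of the CTAG2 transcript, 11.5% also occur in them, so few CTAG2 reads of that length match them exactly.

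MAGEA8 (ENSG00000156009, chrX:149881141-149885835, plus strand) followed the same pattern within the MAGEA family. Its normalized counts were 0, 7.47 and 0 in EV 1, EV 2 and EV 3, and 649.9, 383.0 and 302.7 in the HDAC8 libraries. Both EV libraries other than EV 2 lacked reads, and the lowest HDAC8 library was far above EV 2. With 8 counts in EV and 1412 in HDAC8, the difference was 175-fold (95% counting interval 88.6 to 406.3, DESeq2 adjusted p = 5.52e-05). The DESeq2 95% interval of the fold change, which takes in the spread between libraries, was wider, from 21.0 to 1491. All EV reads of MAGEA8 were in EV 2, without which it was at least 145.9-fold higher against the same floor (DESeq2 adjusted p = 3.11e-11). No 150-base window of MAGEA8 occurs in another gene, so a read of that length from MAGEA8 matches no other gene exactly. Per kb of exon it reached 188.4 normalized counts in HDAC8, about the level of MAGEA11 (196.5) and far under that of MAGEA4 (1701). MAGEA9, which lies 93.4 kb from MAGEA8, was at 0 in every library. Its near-identical copy MAGEA9B lies further off, beyond MAGEA11, and held 6 counts, every one of them in EV 1. The antisense gene at the start of MAGEA8, MAGEA8-AS1, had 15 counts, all in HDAC8 2, and strand-specific counting is not stated for these data. The promoter window of MAGEA8 (RefSeq, GRCh38.p14, 250 bases before to 50 after the start) is shown because it is the member with the clearest rise from 0 for which the reference table holds one. Capitals mark CpG, the dinucleotide that is methylated in silent promoters. A window of MAGEA4 is given beside it, since MAGEA4 was abundant in both groups and was not called. The table lists 5 MAGEA4 starts, and the window shown is the most similar to that of MAGEA8 (59.67% identical, the others 49.33% to 53.33%).
MAGEA8, chrX:149880933-149881232, plus strand: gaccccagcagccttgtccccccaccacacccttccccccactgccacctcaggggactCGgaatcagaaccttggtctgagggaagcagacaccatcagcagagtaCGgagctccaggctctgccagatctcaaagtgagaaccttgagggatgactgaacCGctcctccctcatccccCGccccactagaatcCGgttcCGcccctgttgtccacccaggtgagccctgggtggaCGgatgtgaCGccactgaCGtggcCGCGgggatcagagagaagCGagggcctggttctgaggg
MAGEA4, chrX:151912224-151912523, plus strand: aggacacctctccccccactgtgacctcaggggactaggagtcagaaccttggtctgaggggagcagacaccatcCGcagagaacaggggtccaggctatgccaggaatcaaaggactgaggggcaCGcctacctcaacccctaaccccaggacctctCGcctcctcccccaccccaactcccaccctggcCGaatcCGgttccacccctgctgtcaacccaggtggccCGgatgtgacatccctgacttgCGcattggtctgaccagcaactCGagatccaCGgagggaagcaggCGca
The MAGEA8 window held 12 CpG, and the 5 MAGEA4 windows held 10 (the one shown), 11, 13, 15 and 15. Over the 77 windows listed for 58 members the median was 12, against 14 over all 35116 windows of the table.

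MAGEA10 (ENSG00000124260, chrX:152133310-152138578, minus strand) and MAGEA1 (ENSG00000198681, chrX:153179284-153183880, plus strand) were already expressed in EV cells and rose by similar factors. MAGEA10 had normalized counts of 2335, 2441 and 2433 in EV and 5431, 5565 and 5220 in HDAC8, a spread within each group that was small beside the gap between them. Its mean went from 2403 ± 59.1 to 5406 ± 174 (SD, n = 3 each), or 1.17 on the log2 scale (SE 0.14, DESeq2 adjusted p = 5.27e-15). MAGEA1, the source of an early known T cell antigen of melanoma, had 1240, 1248 and 1113 in EV and 3221, 2247 and 2245 in HDAC8. Again HDAC8 1 was the highest, and the groups stayed apart without it. MAGEA1 differed by 1.10 on the log2 scale (SE 0.20, DESeq2 adjusted p = 1.59e-06), and by 0.90 without HDAC8 1. When the test was made against the fold minimum itself, MAGEA1 and CT45A8 were the calls that were lost, leaving 5. MAGEA1 shares no 150-base window with another gene. MAGEA10 shares 12.3% of its windows, all with a read-through transcript, MAGEA10-MAGEA5, that had at most 130.0 normalized counts in any library.

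The other 7 tested MAGEA members were not called. MAGEA4, with MAGEA3 among the most abundant of the family per kb of exon, had 4575, 5951 and 4828 in EV and 7235, 5100 and 4863 in HDAC8 (log2 fold change 0.16, SE 0.18, DESeq2 adjusted p = 0.696). The interval of its fold change ran from 0.87 to 1.44. Although 208.1 kb separate the gene bodies of MAGEA4 and MAGEA10, MAGEA10 passed the test and MAGEA4 did not, and the difference between their changes was not tested. MAGEA11 (0.14), MAGEA12 (0.02), MAGEA3 (-0.03) and MAGEA6 (-0.12) had log2 fold changes within 1 SE of 0 and overlapping groups. MAGEA3 and MAGEA6, which bind the ligase TRIM28, share 27.9% of their windows with each other. Their summed counts were 4909 ± 631 in EV and 4730 ± 531 in HDAC8 (SD, n = 3 each), and MAGEA3 took 68.2% to 74.2% of the sum in every library. Their promoter windows are identical letter for letter, so 1 copy stands for both.
MAGEA3 (chrX:152698544-152698843, plus strand) and MAGEA6 (chrX:152769640-152769939, minus strand): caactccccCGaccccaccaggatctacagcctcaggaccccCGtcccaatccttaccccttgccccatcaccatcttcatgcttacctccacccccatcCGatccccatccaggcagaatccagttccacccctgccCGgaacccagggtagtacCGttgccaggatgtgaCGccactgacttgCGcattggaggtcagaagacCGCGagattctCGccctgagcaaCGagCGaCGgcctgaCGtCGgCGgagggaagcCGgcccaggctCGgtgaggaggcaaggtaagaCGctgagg
This window held 19 CpG.

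MAGEA2 and MAGEA2B, near-identical copies, had values that went in opposite directions. They share 97.8% and 100% of their windows, and RSEM, which estimates from ambiguous reads how many belong to each gene, gave the copies unequal counts. MAGEA2 had 1299, 723.8 and 1112 in EV and 819.2, 604.2 and 462.8 in HDAC8 (log2 fold change -0.73, SE 0.29, DESeq2 adjusted p = 0.0811). MAGEA2B had 1752, 2837 and 1706 in EV and 3896, 2682 and 2660 in HDAC8 (log2 fold change 0.55, SE 0.23, DESeq2 adjusted p = 0.0953). Neither was called over all libraries, but their directions were opposite, and the share of MAGEA2 in the sum was 42.6%, 20.3% and 39.5% in EV and 17.4%, 18.4% and 14.8% in HDAC8. EV 2 lay near the HDAC8 libraries in this share. Without EV 2, MAGEA2 was called lower (log2 fold change -0.94, DESeq2 adjusted p = 0.0297) and MAGEA2B higher (0.83, 0.00395), and without HDAC8 1 MAGEA2 was called lower (-0.97, 0.00748). The sum of both copies was 3144 ± 380 in EV and 3708 ± 876 in HDAC8 (SD, n = 3 each), a ratio of 1.18, with overlapping groups. Whether the copies differed or the division of their shared reads did was not tested. The window of MAGEA2B and 1 of the 2 windows of MAGEA2 are identical, and the other MAGEA2 window is 72% identical to that of MAGEA2B.
MAGEA2 (chrX:152753793-152754092, minus strand) and MAGEA2B (chrX:152714378-152714677, plus strand): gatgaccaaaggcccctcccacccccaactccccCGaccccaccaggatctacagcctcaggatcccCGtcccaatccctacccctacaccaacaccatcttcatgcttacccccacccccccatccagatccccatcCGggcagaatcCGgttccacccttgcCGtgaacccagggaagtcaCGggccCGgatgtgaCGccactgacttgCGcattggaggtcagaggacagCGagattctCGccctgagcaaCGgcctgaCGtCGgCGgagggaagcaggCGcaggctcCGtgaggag
This window held 17 CpG.

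Summed over its 12 genes, the MAGEA family had normalized counts of 17471, 21022 and 18386 in EV and 29613, 22577 and 22368 in HDAC8. The means were 18960 ± 1844 and 24853 ± 4124 (SD, n = 3 each), a ratio of 1.31, and the groups did not overlap. MAGEA10 made up 50.9% of the difference of 5893, MAGEA1 23.3% and MAGEA8 7.51%. These shares depended on HDAC8 1. Without it the difference was 3513, and the share of MAGEA10 was 85.1%, that of MAGEA1 29.8% and that of MAGEA8 9.69%, so that the other members together were lower in HDAC8. HDAC8 1 was the highest HDAC8 library for 14 of the 22 tested members with reads in that group, and EV 2 was the highest EV library for 17 of 24.

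**Figure D2:**
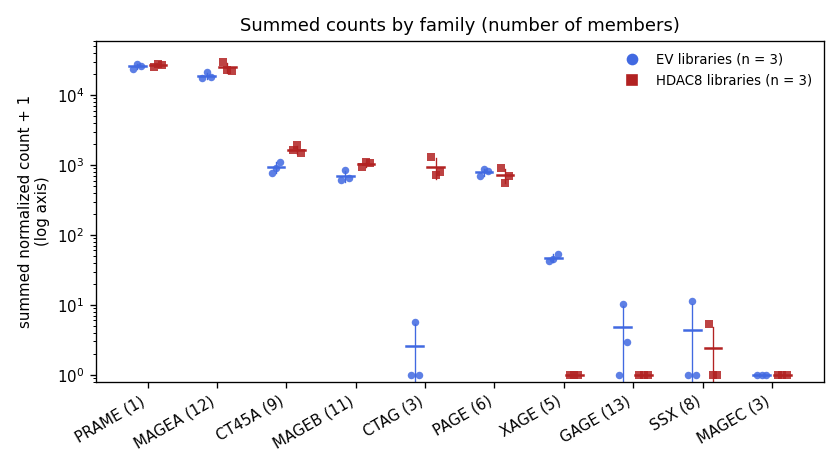
Summed normalized count plus 1 of each family in each library, on a log axis, with the number of members in brackets, 3 EV libraries (circles), 3 HDAC8 libraries (squares), and the group mean and SD (bars and lines). CTAG lies at 0 to 4.67 in EV and at 729.2 or more in HDAC8, XAGE at 40.9 to 52.2 in EV and at 0 in HDAC8, and PRAME and PAGE overlap between the groups.

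The CT45A genes, 9 copies in an array at Xq26.3, had both a higher sum and another division among the copies in HDAC8. Their summed normalized counts were 764.4, 912.5 and 1096 in EV and 1618, 1906 and 1460 in HDAC8. The means were 924.4 ± 166 and 1661 ± 226 (SD, n = 3 each), a ratio of 1.80, and the groups did not overlap. CT45A1 (ENSG00000268940, chrX:135713639-135723539, plus strand) had 151.0, 257.8 and 273.9 in EV and 614.8, 977.0 and 702.4 in HDAC8 (log2 fold change 1.75, SE 0.33, DESeq2 adjusted p = 4.85e-06). Its share of the sum went from 19.8% to 28.3% in EV to 38.0% to 51.3% in HDAC8. CT45A10 took the opposite course, with 444.6, 469.8 and 449.2 in EV and 221.5, 291.9 and 332.1 in HDAC8. Its groups did not overlap, but it was not called (log2 fold change -0.69, SE 0.32, DESeq2 adjusted p = 0.149), and its share of the sum was 41.0% to 58.2% in EV and 13.7% to 22.7% in HDAC8. It was called when genes were required to have 10 counts in every library (adjusted p = 0.0447). CT45A3 had 0, 8.41 and 0 in EV and 216.3, 80.9 and 119.8 in HDAC8, which is 9 against 442 counts (48.7-fold, 95% counting interval 25.4 to 107.2, DESeq2 adjusted p = 2.73e-06). The DESeq2 95% interval of the fold change of CT45A3 was wider, from 11.9 to 199.4. Its EV reads were all in EV 2, without which it was at least 45.6-fold higher (adjusted p = 7.11e-07), and without HDAC8 2 it lost its call (adjusted p = 0.0981). CT45A8 had 0, 17.7 and 0 in EV and 210.4, 32.8 and 55.5 in HDAC8 (17.2-fold, 95% counting interval 10.8 to 28.9, DESeq2 adjusted p = 0.0154). The DESeq2 95% interval of the fold change of CT45A8 was wider, from 2.96 to 94.4. CT45A8 lost its call when any library other than EV 2 was left out (adjusted p from 0.0574 to 0.469). Without EV 2, which held all of its EV reads, CT45A8 was at least 32.6-fold higher (adjusted p = 2.54e-05). CT45A9 had 0, 17.7 and 0 in EV and 147.9, 32.8 and 39.2 in HDAC8. It was not called (log2 fold change 3.62, DESeq2 adjusted p = 0.0585). CT45A8 and CT45A9 were given equal values in EV 2 and in HDAC8 2. Of their windows, 100% and 96.8% occur in another gene, and the counting interval of CT45A8 does not cover the division of such reads. CT45A5 (1.71, adjusted p = 0.272) and CT45A2 (-0.19, adjusted p = 0.929) were not called, and CT45A6 and CT45A7 were at 0 throughout. From 48.6% to 100% of the windows of the expressed CT45A genes occur in another gene, the highest shares being those of CT45A8, CT45A9, CT45A2 and CT45A3, so a value for a single copy carries the error of the division as well as that of the libraries.

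**Figure D3:**
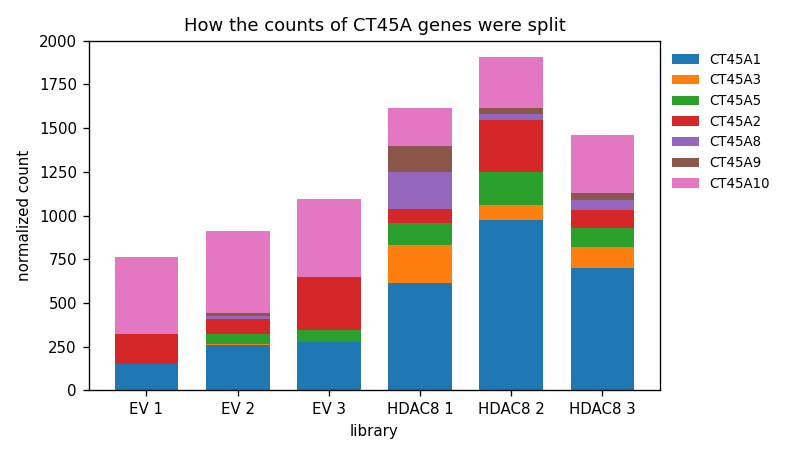
Normalized counts of the CT45A genes with reads, stacked by gene in each of the 6 libraries, on a linear axis from 0. The HDAC8 bars (1460 to 1906) are taller than the EV bars (764.4 to 1096), and the CT45A10 segment shrinks while the CT45A1 segment grows.

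The promoter windows of CT45A1 and of CT45A10 (the nearer of its 2 listed starts in sequence) are shown because these copies carried most of the CT45A counts and had opposite directions. They were 93.33% identical, and the other listed start of CT45A10 was 54.33% identical to that of CT45A1.
CT45A1, chrX:135713389-135713688, plus strand: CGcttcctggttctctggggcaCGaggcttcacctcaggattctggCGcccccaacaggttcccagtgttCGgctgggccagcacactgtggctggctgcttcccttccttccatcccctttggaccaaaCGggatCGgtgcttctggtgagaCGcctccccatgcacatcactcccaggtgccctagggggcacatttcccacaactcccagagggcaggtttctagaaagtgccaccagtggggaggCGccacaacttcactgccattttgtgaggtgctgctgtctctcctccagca
CT45A10, chrX:135888847-135889146, minus strand: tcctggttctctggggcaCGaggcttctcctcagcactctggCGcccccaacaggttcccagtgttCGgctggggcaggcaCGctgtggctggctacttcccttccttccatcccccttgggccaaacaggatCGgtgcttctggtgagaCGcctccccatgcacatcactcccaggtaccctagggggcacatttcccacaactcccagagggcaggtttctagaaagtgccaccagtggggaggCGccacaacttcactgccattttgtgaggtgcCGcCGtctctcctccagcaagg
They held 8 and 9 CpG. CTAG2, MAGEA1, MAGEA10, CT45A3 and CT45A8 were the called members without a window in the table.

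XAGE1A and XAGE1B, copies of a gene named XAGE1 in opposite orientation at Xp11.22, were the only family members with reads in all EV libraries and none in the HDAC8 libraries. XAGE1B (ENSG00000204382, chrX:52512077-52520803, minus strand) had 32.5, 38.3 and 29.6 in EV. With 102 counts against 0, it was at least 11.4-fold lower in HDAC8 against a floor of 3 counts per library (DESeq2 adjusted p = 0.0012). XAGE1A had 8.39, 6.54 and 22.7 in EV and received no adjusted p. All windows of each copy occur in the other, so their sum is the measure to read, and it was 46.0 ± 5.75 in EV (SD, n = 3) and 0 in every HDAC8 library, at least 15.5-fold lower. XAGE2, XAGE3 and XAGE5 were at 0 in all libraries. A window of XAGE1A and a window of XAGE1B were identical.
XAGE1A (chrX:52495627-52495926, plus strand) and XAGE1B (chrX:52516963-52517262, minus strand): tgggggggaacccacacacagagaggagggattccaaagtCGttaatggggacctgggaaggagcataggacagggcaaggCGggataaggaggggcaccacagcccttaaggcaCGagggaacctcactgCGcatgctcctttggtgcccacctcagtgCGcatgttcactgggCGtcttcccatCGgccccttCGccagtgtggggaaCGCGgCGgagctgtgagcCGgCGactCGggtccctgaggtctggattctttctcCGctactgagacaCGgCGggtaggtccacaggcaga
It held 17 CpG.

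PRAME (ENSG00000185686, chr22:22547701-22559361, minus strand) was by far the most abundant member in both groups. Its normalized counts were 23304, 27927 and 25830 in EV and 25078, 27610 and 26910 in HDAC8. The means were 25687 ± 2315 and 26533 ± 1308 (SD, n = 3 each). Its groups overlapped, the fitted difference was 0.05 on the log2 scale (SE 0.13, DESeq2 adjusted p = 0.91), and the 95% interval of its fold change ran from 0.87 to 1.22. Per kb of exon, its mean level was 6749 in EV and 6971 in HDAC8, far above any other member. In EV it was followed by MAGEA3 (1951), MAGEA4 (1519), PAGE5 (1045), MAGEA2B (866.5), MAGEA10 (829.0), MAGEA12 (794.4), MAGEA6 (791.5) and MAGEA1 (701.6). In HDAC8 the order was MAGEA3 (1915), MAGEA10 (1865), MAGEA4 (1701), MAGEA1 (1503), MAGEA2B (1271), PAGE5 (954.0), CTAG2 (940.3), MAGEA12 (803.2) and MAGEA6 (728.9). Both orders depend on the length used, which is the union of all annotated exons of a gene. For MAGEA4 this length was 3370 bases and the longest transcript 1982, and for MAGEA3 they were 1773 and 1762. The place of MAGEA4 under MAGEA3 rests on this choice of length. Over all 71 family genes the summed counts were 47113 ± 4383 in EV and 55731 ± 3263 in HDAC8 (SD, n = 3 each), a ratio of 1.18, and the groups did not overlap.

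Of the remaining families, MAGEB2 carried nearly all MAGEB reads. It had 605.0, 825.6 and 652.2 in EV and 938.9, 1090 and 1060 in HDAC8, and every HDAC8 library was above every EV library. It was not called (log2 fold change 0.57, SE 0.23, DESeq2 adjusted p = 0.0902). PAGE5 had 685.8, 862.0 and 810.8 against 892.7, 556.1 and 703.5 (log2 fold change -0.13, SE 0.26, DESeq2 adjusted p = 0.864), with overlapping groups. MAGEC1, MAGEC2 and MAGEC3 were at 0 in every library. The GAGE genes held 12 counts in all, every one in EV 2 or EV 3, and the SSX genes held 11 counts in EV 2 and 5 in HDAC8 1. These families were below what could be compared at this depth. SSX2IP, the autosomal gene matched by name alone, had 1579, 1494 and 1448 against 1164, 1565 and 1533 (log2 fold change -0.09, SE 0.20, DESeq2 adjusted p = 0.89).

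**Figure D4:**
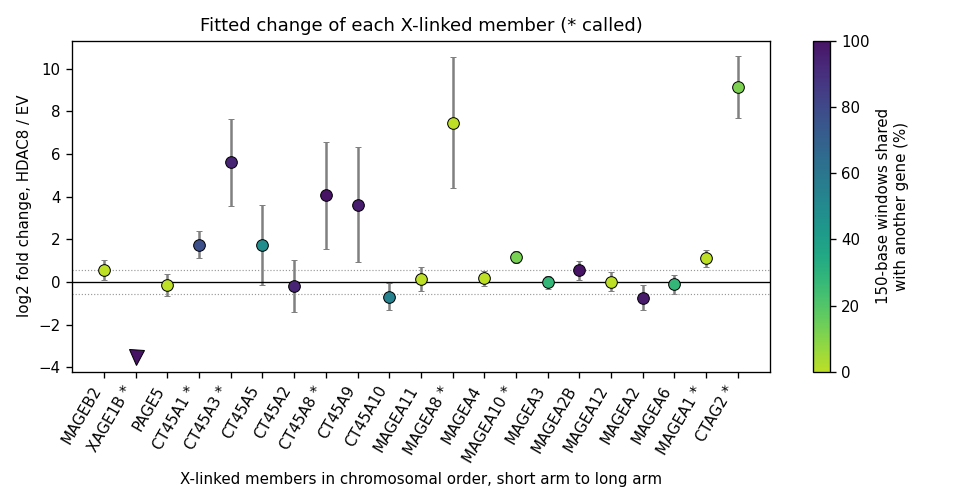
DESeq2 log2 fold change (HDAC8 over EV, 95% intervals) of the X-linked members with an adjusted p, in chromosomal order, shaded by the percent of their 150-base windows that occur in another gene, with dotted lines at 0.58 on either side of 0. MAGEA8, MAGEA10, MAGEA1 and CTAG2 are called and share at most 12.3% of their windows, members that were not called lie between them, and XAGE1B (triangle) is drawn at the bound given by 3 counts per library.

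Motifs were counted in the promoter windows on both strands. The ETS core searched (CCGGAA or its reverse complement) occurred in 6 of the 77 member windows (7.79%) and in 17.2% of all windows, and the AP-1 motif TGANTCA occurred in 5 member windows (6.49%) and in 7.71% of all. Windows of 1 gene overlap and copies share theirs, so these counts are descriptions and no test was made.

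Genes around these families were read from lists chosen by function. Of 49 other cancer-testis genes, 21 had an adjusted p, 1 was called higher and 3 lower, and their median log2 fold change was -0.43. Over all 21021 genes with an adjusted p, 5.57% were called higher and 5.44% lower. ROPN1B, which encodes a sperm fibrous sheath protein, rose from 158.7 ± 14.5 to 377.5 ± 73.5 (SD, n = 3 each, log2 fold change 1.25). TEX15, a gene needed in male meiosis, fell from 1060 ± 157 to 59.5 ± 19.0 (log2 fold change -4.15), the germ line phosphatase-like gene TPTE fell from 114.6 ± 22.3 to 0 in every HDAC8 library (at least 38.6-fold lower), and BAGE2 had 2003 counts in EV and 1 in HDAC8. BAGE2 is listed as a transcribed pseudogene, unlike the protein-coding members. It lies near TPTE (chr21:10454134-10516431 and chr21:10521553-10606140), and whether their falls are separate was not tested.

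Among 16 genes of the DNA methylation machinery with an adjusted p, 4 were called higher and 2 lower, with a median log2 fold change of -0.0039. The shares over all genes with an adjusted p were 5.57% higher and 5.44% lower. DNMT1, the maintenance methyltransferase, rose from 8098 ± 646 to 13460 ± 1721, and UHRF1, which recruits it to hemimethylated DNA, rose from 2718 ± 439 to 4964 ± 1423 (SD, n = 3 each). ZBTB38, a methyl-CpG-binding protein, rose from 8328 ± 484 to 18925 ± 3147, and MBD3 rose from 4135 ± 802 to 7170 ± 1229. The de novo methyltransferase gene DNMT3B fell from 655.6 ± 58.7 to 353.1 ± 28.7, and TET1, which oxidises methylcytosine, fell from 1628 ± 282 to 838.8 ± 235 (SD, n = 3 each). DNA methylation itself was not measured in these libraries.

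Of 10 type II MAGE genes, which are expressed in many tissues, MAGED1 rose from 6765 ± 846 to 12511 ± 961 and NDN fell from 377.9 ± 93.1 to 48.1 ± 14.5 (SD, n = 3 each), and the others were not called. Of 13 genes listed here for a relation to MAGE proteins or PRAME, not all of which encode established partners, 2 were called higher. TRIM28, the ligase bound by MAGEA3 and MAGEA6, rose from 8201 ± 1248 to 12489 ± 2010 (SD, n = 3 each). No gene of that list was called lower. Beside both lists, 5.57% of all genes with an adjusted p were called higher and 5.44% lower.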

How the data were processed

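RNA was sequenced by the study as paired-end reads of 150 bases, trimmed with Trimmomatic, aligned to the transcriptome with STAR and quantified with RSEM. The values the authors deposited are RSEM expected counts per gene, not scaled between libraries, in which a read that fits several genes is divided among them by estimate. Genome build, annotation and strand setting are not given in the sources used here. The table held 6 columns of values, 1 per library, and 0 others.

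The labels gave the group and replicate number of each library. They name no batch, and they number biological replicates without saying how these were grown, so p-values measure the spread between these libraries only. No library was a repeat of another, since the chi-square per gene between libraries of 1 group was 26.0 to 153. HDAC8 1 lay furthest from the others of its group, at 153 with HDAC8 2 and 102 with HDAC8 3. HDAC8 2 and HDAC8 3 were at 26.0, and the EV libraries at 39.0 to 47.3 with each other. Expected counts were rounded and tested by DESeq2 1.42.0 (R 4.3.3, Wald test, two-sided) over the 26162 genes that reached 10 counts in total, with its own size factors (0.918 to 1.17), no covariates and Benjamini-Hochberg adjustment. The tool and both call thresholds are those of the study's methods, although a legend in the study gives p without such adjustment, and the filter was chosen here. DESeq2 gave no adjusted p to 5141 genes. Normalized counts are counts divided by size factors. Families and copies were summed per library without a test. Folds against a group at 0 used a floor of 3 counts per library (2.57 to 3.27 normalized). Counting intervals (95%, Clopper-Pearson) pool the libraries of a group and cover counting error only, as the reads carry no molecular identifiers.

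Positions and exon lengths came from GENCODE 44, where 56558 gene identifiers were found. An exon length is the union of all annotated exons of a gene. The 150-base windows of each member's longest transcript came from the same release and were searched on both strands in all other genes. Sequenced fragments are longer than 150 bases, so the true ambiguity can be smaller. It can also be larger, since only exact matches were counted and reads were trimmed. MAGEA12 shared 0% of its windows and still had expected counts that were not whole. Promoter windows came from the RefSeq table of GRCh38.p14. Named members are those called and those whose normalized counts averaged 50 or more; of other lists, called genes with such a mean, at most 8 a list. Some called genes outside the families are not reported here. The members, lists and tests were chosen with earlier results of these data known.

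Replicate numbers were checked as pairs. Over 14451 genes, the correlation of deviations within each number was -0.03, -0.07 and 0.04, so the numbers do not pair the libraries. Alternatives were edgeR 4.0.16 (quasi-likelihood) and limma-voom 3.58.1, scaling by total counts or by upper quartiles, a filter of 10 counts in every library or none, a replicate block, other call rules, and each library left out in turn.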

Additional observations from a re-analysis of the deposited data

How the results depend on the processing

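Across the alternatives, the count of members called higher (7) was 3 when at least 10 counts were required in every library, a filter that by its construction removed CTAG2, MAGEA8, CT45A3 and CT45A8, and members called lower (1) were 2 there, CT45A10 and MAGEA2. Leaving out a library gave 5 to 9 called higher and 1 to 2 called lower. With the replicate block 8 were called higher, CT45A9 being added, and 1 lower, and the block changed no other call of a member. Log2 fold changes of members that were not called turned sign in some fits. MAGEA3 was 0.0217 with total-count size factors, and MAGEA12 was -0.0207 with limma-voom and -0.0302 with the replicate block. With a library left out, ranges were -0.999 to 0.36 for CT45A2, -0.10 to 0.30 for MAGEA11, -0.28 to 0.18 for MAGEA12, -0.11 to 0.0484 for MAGEA3, -0.0407 to 0.28 for MAGEA4, -0.31 to 0.0065 for MAGEA6, -0.32 to 0.0264 for PAGE5, -0.0211 to 0.11 for PRAME and -0.16 to 0.0378 for SSX2IP. The cause was not tested. Of 22 named members, 8 kept direction and call in every fit that gave a value with edgeR, limma-voom, another scaling or filter, the block or a library left out (CTAG2, MAGEA8, MAGEA10, MAGEA1, CT45A1, XAGE1B, CT45A5 and MAGEB2), although MAGEA1 lost its call in the test against the fold minimum. The summed counts of CT45A, CTAG, MAGEA and MAGEB kept their direction, while the log2 ratio of PAGE (-0.14) was 0.0215 without HDAC8 replicate 2 and that of PRAME turned as given above. Depth limits what can be said of the 48 members at 0 or under a total count of 10, and the division of reads limits single values of near-identical copies. Such copies include CT45A6 and CT45A7, which were at 0 and of whose windows 98.5% and 100% occur in another gene.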

Other observations

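Genes lying among the families were read after the values had been seen, from the first to the last member of each cluster (GENCODE 44, GRCh38). From MAGEA9B to CTAG2 at Xq28, 63 other protein-coding genes had an adjusted p, of which 5 were called higher and 2 lower by DESeq2, with a median log2 fold change of 0.03. PNMA6A rose from 62.9 ± 32.4 to 259.9 ± 62.7 normalized counts and FLNA from 66121 ± 12549 to 102831 ± 24910, while PNMA5 fell from 339.3 ± 94.4 to 55.3 ± 17.4 (SD, n = 3 each). Among the GAGE, PAGE, XAGE and SSX genes at Xp11, where few members had reads, 58 other genes had an adjusted p, 12 were called higher and 0 lower, and the median was 0.42. SHROOM4 rose there from 873.6 ± 111 to 3437 ± 389 and CCDC120 from 111.7 ± 22.0 to 455.6 ± 107. From MAGEB17 to MAGEB16, 8 of 42 other genes were called higher and 1 lower, with a median of 0.18. All 8 called higher lay between MAGEB17 (start chrX:16167481) and MAGEB18 (start chrX:26138343), a stretch that holds no other member. PTCHD1 rose there from 29.5 ± 21.2 to 1238 ± 240 (SD, n = 3 each). The gene called lower, DCAF8L1, lies between MAGEB10 and MAGEB2. It fell from 41.0 ± 25.5 (SD, n = 3) to 0 in every HDAC8 library. Of the protein-coding X-linked genes outside the families, 10.9% were called higher. The CT45A array holds no other protein-coding gene in full. SAGE1 (chrX:135890182-135913062, plus strand) starts inside it and overlaps CT45A10, which lies on the minus strand. Its means were 957.5 ± 102 in EV and 1139 ± 139 in HDAC8 (SD, n = 3 each), and it was not called (log2 fold change 0.25, DESeq2 adjusted p = 0.563). Whether the overlap affected the counts of CT45A10 was not tested.

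The antisense gene MAGEA4-AS1 had 170.9, 173.7 and 155.7 normalized counts in EV and 88.1, 122.9 and 128.5 in HDAC8, with groups that did not overlap, and was not called (log2 fold change -0.56, DESeq2 adjusted p = 0.557). The read-through transcript MAGEA10-MAGEA5 had 25.2, 15.9 and 19.7 in EV and 130.0, 22.5 and 2.18 in HDAC8.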
